A study of Mus musculus with 24 samples.

Results

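The interferon response genes are 41 mouse genes that interferons switch on or that carry and control that response. They were chosen by name, as listed rows of the deposited gene count table, and the rule uses no measured value, although the list was drawn up with earlier results of these data known. All 41 were among the 40836 genes of that table and among the 20437 genes with enough counts to be tested. The series is bulk sequencing of polyadenylated RNA from mouse brain in 24 libraries. Library names carry an E code, E3 or E4, and a time code, 05, 10 or 15, which give 6 groups of 4: E3-05, E4-05, E3-10, E4-10, E3-15 and E4-15. The labels spell out neither code, although the series title speaks of ApoE4, and they name no strain, age, sex or treatment. Sample titles add a month: January and February for time code 05, March and April for 10, May and June for 15, each with 2 E3 and 2 E4 libraries. All libraries were extracted with TRIzol. Titles call them biological replicates without saying whether each is a separate animal, so p-values measure the spread between these libraries. The time codes share no month and no block of columns, so time code, month and place in the table cannot be told apart.

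The tissue is labelled brain, yet the libraries are not of 1 brain region. The 8 libraries whose column header is a multiple of 3 (E3-05 2, E4-05 3, E3-10 1, E3-10 4, E4-10 2, E3-15 3, E4-15 1 and E4-15 4) had a mean of 6.14 to 7.06 log2 CPM (counts-per-million values, scaled by TMM factors here and below) over 12 cerebellum and hindbrain genes. The other 16 lay between -1.14 and 1.03. These 8 are called hindbrain-rich below, a split that was known from earlier results of these data, and every comparison carried a term for it. The mean log2 CPM of a list of homeostatic microglia genes was 3.72 to 4.27 in them and 4.63 to 5.23 in the others, and that of astrocyte genes 7.57 to 7.92 against 6.72 to 7.33. Total counts per library ran from 37.4 to 99.5 M (mega counts), with a median of 48.8 M. Hbb-bs, a haemoglobin gene, exceeded 100 CPM in 3 libraries of time code 05, and Gh, a pituitary hormone gene, exceeded 1000 CPM in E3-05 4 and E4-10 2. In bulk tissue, fewer cells of a type and less RNA per cell cannot be told apart.

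Interferons are secreted proteins that warn cells of infection. Cells sense foreign or misplaced nucleic acid, make interferon, and interferon receptors then act through Janus kinases on transcription factors. A complex that holds Stat2 and Irf9 binds the interferon-stimulated response element (ISRE) in promoters of antiviral genes, whereas interferon-gamma acts through the gamma-activated site (GAS) and switches on genes such as Irf1. In the brain, microglia, astrocytes and endothelial cells carry a low tonic level of this programme, and in mice it is known to rise in ageing and in models of Alzheimer's disease.

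The promoters that carry these elements are shown first, because several members with values below hold them. RefSeq promoters (GRCm38.p6, 250 bases before to 50 bases after each start site) were found for 31 of the 41 members, and 10 members (Usp18, Parp9, Ifi27, Zbp1, Parp14, Rtp4, Oas2, Mx2, Mx1 and Dhx58) are named only. The ISRE was searched on both strands as GAAANNGAAA and the GAS as TTCNNNGAA. A match is a description of letters and not a measured binding site. The ISRE letters were in 17 of the 31 members (54.8%) and in 3.99% of all 27025 genes with a promoter. The GAS letters were in 8 of the 31 (25.8%) and in 9.55% of all genes. The matches can overlap, as in Bst2 (tetherin, which holds budding virus at the cell surface), where a GAS match starts at -136 and ISRE matches at -130 and -124 relative to the start site.

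Below are 60-base stretches, 5′ to 3′ along the gene, of 6 members chosen among those with a match and with values below. The matched letters are in capitals. Other members with values below, such as Irf9 and Oasl2, had promoters searched but no match to either element. Ifit3 and Ifit3b are shown together because their stretches are the same 60 letters. In Stat2, Ifit3, Ifit3b, Rsad2 and Gbp2 the element lies on the opposite strand and so reads as its reverse complement, and in Irf1 the capitals mark the GAS.
Stat2, chr10:128270251-128270310, + strand, ISRE at -222: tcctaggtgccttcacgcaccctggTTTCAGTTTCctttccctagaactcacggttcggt
Ifit3, chr19:34583382-34583441, + strand, ISRE at -122: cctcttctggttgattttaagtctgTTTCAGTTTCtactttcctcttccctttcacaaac
Ifit3b, chr19:34607778-34607837, + strand, ISRE at -154: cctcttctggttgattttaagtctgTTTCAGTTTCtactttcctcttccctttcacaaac
Rsad2, chr12:26456538-26456597, - strand, ISRE at -120: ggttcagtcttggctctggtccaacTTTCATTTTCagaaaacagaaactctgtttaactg
Gbp2, chr3:142620579-142620638, + strand, ISRE at -59: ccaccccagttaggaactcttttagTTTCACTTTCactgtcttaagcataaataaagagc
Irf1, chr11:53769898-53769957, + strand, GAS at -90: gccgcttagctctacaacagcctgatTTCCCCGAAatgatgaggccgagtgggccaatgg

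**Figure D1:**
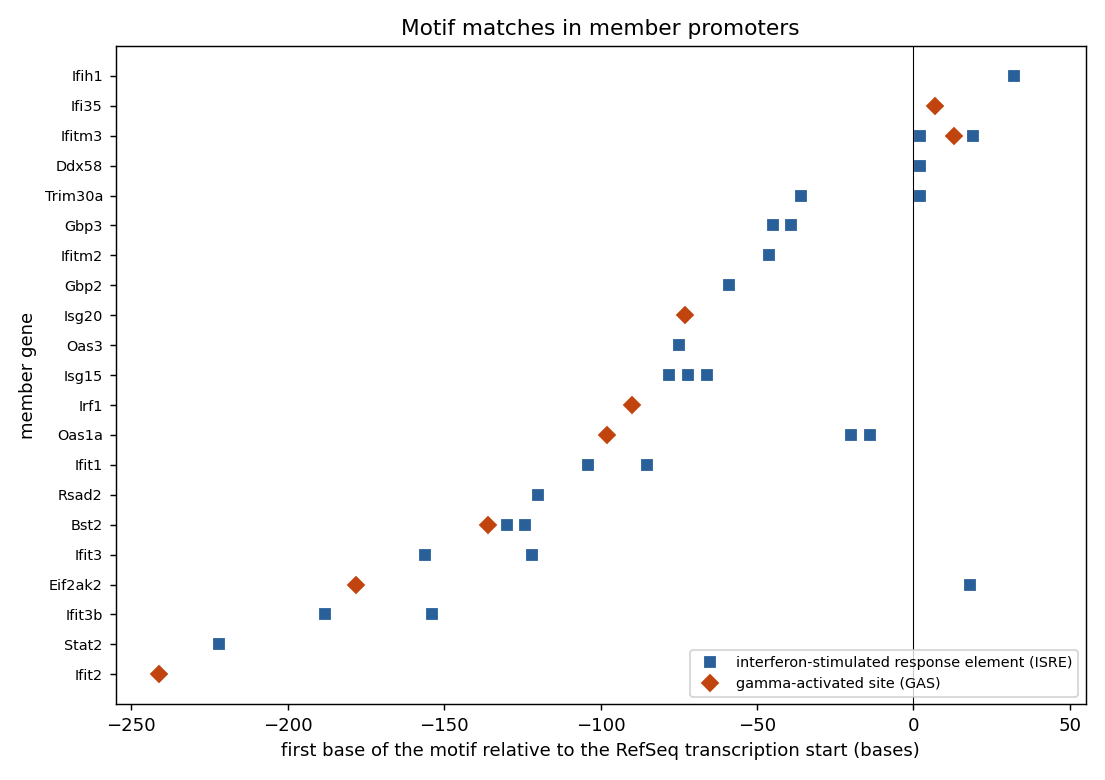
First base of each ISRE (square) and GAS (diamond) match, in bases from the RefSeq start site at 0, for the 21 members with a match. The Stat2 match is the ISRE farthest upstream at -222, the Ifit2 GAS lies at -241, and 6 members hold a match after the start site.

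Transcripts of nearly all members were counted in every library, but no reference level was used to call the programme low or active. Per kilobase of exon (GENCODE vM21 lengths), the median CPM over the 24 libraries was highest for Ifitm2 (12.4), Ifitm3 (11.6), Ifi27 (11.1) and Lgals3bp (9.15), and lowest for Oas3 (0.0201). Ifitm2 and Ifitm3 sit in membranes and block virus entry, and Oas3 makes the oligoadenylates that activate RNase L. Oas3 was the only member without a count in some library, being at 0 in E4-15 1 and E4-15 4. The interferon ligands were near absent: of 11 ligand genes none had enough counts to test, Ifnb1, Ifna1, Ifna4, Ifna5 and Ifnl3 had 0 counts in 24 libraries, and Ifng had the most with 15.

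Some members share sequence, which matters for counting. Of the 50-base words in Ifit3 exons 51.2% also occur in Ifit3b, of those in Oas1a 57.6% occur in other genes, mostly Oas1g, and of those in Ifitm2 48.5%, mostly in the readthrough gene Gm45717. Reads of these pairs cannot be divided with certainty, and values of Ifit3, Ifit3b, Oas1a and Ifitm2 carry that limit throughout. Whether counting used strand is not given in the sources used here. Dtx3l and Parp9 overlap by 458 exon bases on opposite strands, Ifi35 overlaps an antisense gene over 16.8% of its exon bases, and Dhx58 over 4.31%.

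**Figure D2:**
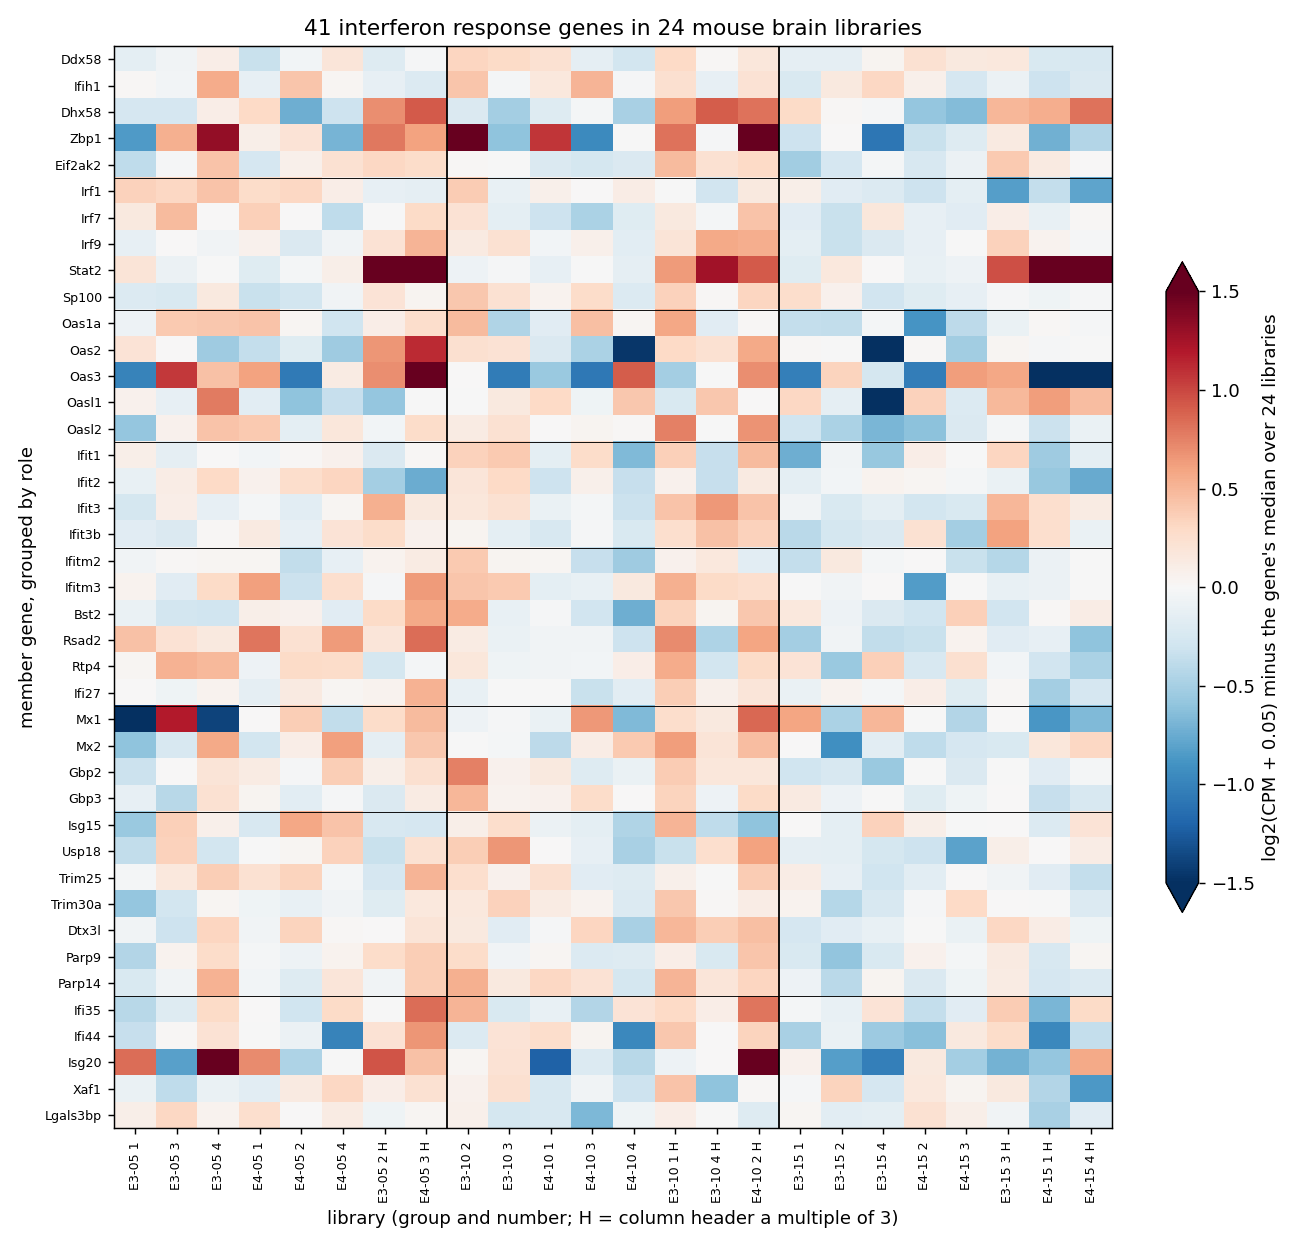
The 41 members (rows, by role) in the 24 libraries (columns, by time code, with hindbrain-rich libraries marked H), coloured by log2(CPM + 0.05) minus the gene's median, with colours capped at 1.5 in either direction. Stat2 and Dhx58 are high in the H columns, and many members are blue at time code 15.

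The first comparison asked how the members differ between hindbrain-rich and other libraries. Stat2 and Dhx58 were higher by over 2-fold, Ifit3, Ifit3b, Irf9 and Eif2ak2 were higher by a smaller margin, and Irf1 and Ifit2 were lower. With edgeR's quasi-likelihood test and Benjamini-Hochberg adjustment over all genes, 11 of the 41 members (26.8%) passed at an adjusted p under 0.05. Of all genes tested 57.5% passed, a larger share than among the members. DESeq2 called the same number of members, 11, and 59.3% of all genes. Of the members 9 were higher and 2 lower, against 30.1% of all genes higher and 27.4% lower. The median log2 fold change of the members was 0.17, with 31 of 41 above 0, against a median of 0.04 and 53.2% above 0 over all genes. Without E4-10 2 the members' median was 0.09. Over the same libraries 12 of 12 homeostatic microglia genes were lower (median -1.11), and 5 of 7 astrocyte genes were higher, as were 5 of 7 choroid plexus, 4 of 7 meningeal and vascular fibroblast and 3 of 5 blood genes, while 0 of 8 endothelial genes passed with edgeR (0 at an unadjusted p under 0.05). The part of these cells in the members' differences was not tested.

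Among the nucleic acid sensors, Dhx58 encodes LGP2, a relative of RIG-I that tunes RNA sensing. It lay at 1.76, 2.1 and 2.36 CPM (lowest, median, highest) in the 8 hindbrain-rich libraries and at 0.718, 1.04 and 1.52 in the other 16. The groups did not overlap, as for 2 of 41 members (Dhx58 and Stat2) and 13.7% of all genes tested, and the log2 fold change was 1.03 (SE 0.14, adjusted p = 1.85e-06). Eif2ak2 encodes PKR, the kinase that stops translation when it binds double-stranded RNA. It lay at 8.54, 10.4 and 11.9 CPM against 5.92, 7.67 and 11.5, with overlap, and rose by 0.37 on the log2 scale (SE 0.09, adjusted p = 0.00152). The RNA sensors Ddx58 (RIG-I, -0.06) and Ifih1 (MDA5, -0.19) and the Z-nucleic acid sensor Zbp1 (0.36, SE 0.36) did not pass.

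Of the 5 transcription factors and nuclear body genes 3 passed, 2 higher and 1 lower. Stat2, the subunit that gives the type I interferon complex its activation domain, lay at 35.6, 60.3 and 71.3 CPM in hindbrain-rich libraries and at 20.1, 22.2 and 26.2 CPM in the others. No hindbrain-rich library came near the others, and the fold was 2.47 (log2 1.30, SE 0.09, adjusted p = 1.78e-10). Stat2 has no exon overlap with another gene and shares 0.69% of its 50-base words with other genes. Its partner Irf9, which gives the complex its contact with the ISRE, lay at 9.82, 12.1 and 14.8 CPM against 7.91, 9.61 and 11.7 and rose by 0.37 (SE 0.07, adjusted p = 1.33e-04). Both genes were higher in hindbrain-rich libraries, Stat2 by the wider margin.

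Irf1, which activates interferon-gamma targets, went the other way. It lay at 3.64, 5.59 and 7.19 CPM in hindbrain-rich libraries and at 5.19, 6.91 and 8.71 in the others, and fell by 0.34 on the log2 scale (SE 0.09, adjusted p = 0.00296). Irf7, the factor that amplifies interferon production, was at 0.18 (SE 0.12) and the nuclear body protein Sp100 at 0.12 (SE 0.09), and neither passed.

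The Ifit genes, which encode proteins that bind viral RNA, split within 1 family. Ifit3 lay at 8.98, 11.1 and 13.0 CPM in hindbrain-rich libraries against 6.58, 7.60 and 9.66, and rose by 0.47 (SE 0.07, adjusted p = 3.64e-06). Ifit3b, its near copy, lay at 4.48, 5.78 and 7.34 CPM against 3.37, 4.30 and 5.62 and rose by 0.40 (SE 0.10, adjusted p = 0.00228). Their differences may not be independent, since much of their sequence is shared. Ifit2 lay at 7.83, 9.81 and 14.5 CPM against 10.4, 13.8 and 16.6 and fell by 0.38 (SE 0.11, adjusted p = 0.00767). Its medians, hindbrain-rich against other, were 8.54 and 15.1 at time code 05, 13.8 and 13.9 at 10, and 8.87 and 12.9 at 15. The lower values of Ifit2 thus lay at 05 and 15, with 2 and 3 hindbrain-rich libraries, and hardly at 10. Ifit1, which binds RNA that lacks cap methylation, was at 0.05 (SE 0.15).

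The last 3 members called were Oas2, Dtx3l and Ifi35, all higher. Oas2, an oligoadenylate synthetase, lay at 0.932, 1.14 and 2.1 CPM against 0.274, 0.813 and 1.12, with a log2 fold change of 0.67 (SE 0.21, adjusted p = 0.0108). Dtx3l, a ubiquitin ligase that works with Parp9, was at 0.26 (SE 0.10, adjusted p = 0.0338) and Ifi35 at 0.37 (SE 0.15, adjusted p = 0.0437). With 1 library left out at a time, Oas2 was called in 23 of 24 fits (not without E4-05 3), Dtx3l in 12 and Ifi35 in 8, whereas the other 8 members were called in all 24. Over 9 other settings Oas2 and Dtx3l were each called in 7 and Ifi35 in 3, so the call of Ifi35 was the least stable.

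The remaining 30 members did not pass. These include every membrane effector (Ifitm2, Ifitm3, Bst2, Rsad2, Rtp4 and Ifi27, between -0.14 and 0.24) and every GTPase (Mx1, Mx2, Gbp2 and Gbp3, between -0.04 and 0.30). The 95% interval for Trim25, a ubiquitin ligase that acts on RIG-I, ran from -0.20 to 0.20.

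**Figure D3:**
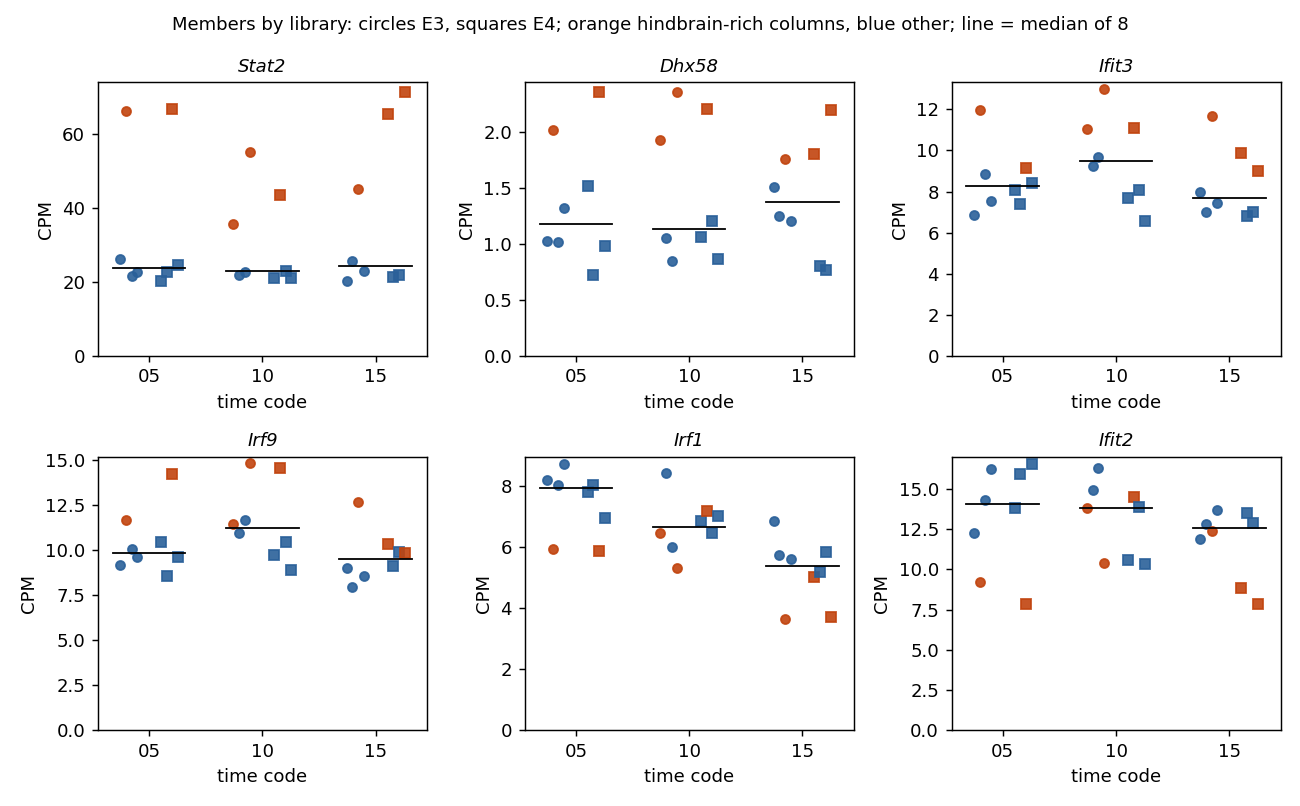
CPM of Stat2, Dhx58, Ifit3, Irf9, Irf1 and Ifit2 per library, by time code, with circles for E3, squares for E4, orange for hindbrain-rich libraries and blue for others; lines are medians of 8. Stat2 and Dhx58 separate the colours in all 3 time codes, while Irf1 and Ifit2 are mostly lower in orange.

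Of the other interferon lists, the shares that passed by region are to be read against the 57.5% of all genes. Of 15 genes of receptors and signal transduction 8 passed (53.3%), 3 higher and 5 lower, including the lambda receptor Ifnlr1 (1.25, SE 0.29) and the kinase Tyk2 (0.29, SE 0.08). Of 18 tested genes that sense nucleic acid upstream of interferon 12 passed (66.7%), 4 higher and 8 lower: Irf3 was higher (0.64, SE 0.09), and Tlr7 (-1.04, SE 0.14), Irf5 (-0.75, SE 0.11) and Sting1 (-0.67, SE 0.11) were lower. Tlr7 and Irf5 are microglia and macrophage genes, and the microglia list was lower in the same libraries. The part of these cells in the lower values of Tlr7 and Irf5 was not tested. Of 44 further induced genes 14 passed (31.8%), 8 higher and 6 lower, among them Apol9a (1.88, SE 0.37), Gbp6 (0.83, SE 0.15), Herc6 (-1.29, SE 0.19) and Ly6e (-0.72, SE 0.11).

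The second comparison asked how the members differ between time codes, averaged over E codes. At time code 15 most members were lower than at 05 or 10, but no single member passed with edgeR. Months within 05 and 10 differed too, with member medians of 0.13 for February minus January and -0.24 for April minus March. For 15 minus 05, 36 of the 41 members were below 0 (87.8%, against 48.9% of all genes) with a median log2 fold change of -0.20, against 0.00 over all genes. For 15 minus 10, 37 of 41 were below 0 (90.2%) with a median of -0.22, against 0.00 over all genes. These 2 comparisons share the time code 15 libraries and are not independent, and members move together between libraries, as shown further on, so these counts are not 41 separate observations. Of all highest values over the 24 libraries, time code 15 held those of 2 members, and of all lowest values those of 26. By month, February and March held the highest values of 17 and 18 members, against 1 in January and 3 in April. So the difference from time code 15 was not even over the earlier months. The same counts were not made over all genes.

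With edgeR's quasi-likelihood test 0 of 41 members passed in 15 minus 05, where 0.0538% of all genes passed, and 9 members had an unadjusted p under 0.05. DESeq2 called 2, Irf1 and Rsad2, and 0.176% of all genes. In 15 minus 10, 0 members passed, where 0.00489% of all genes passed, 13 had an unadjusted p under 0.05, and DESeq2 called 1, Oasl2, and 0.0881% of all genes. In 10 minus 05, 0 members passed with either tool, as did 0% of all genes with edgeR, 6 had an unadjusted p under 0.05, and the members' median was 0.01 with 22 above 0. The smallest p of that comparison were those of Sp100, Gbp3 and Lgals3bp. Sp100 lay at 4.62, 5.36 and 6.76 CPM at 05 (lowest, median, highest of 8) and at 5.07, 6.97 and 7.77 at 10, a log2 fold change of 0.26 (SE 0.10). Gbp3, a GTPase, lay at 3.53, 4.49 and 5.56 against 4.48, 5.31 and 6.68, also 0.26 (SE 0.10). Lgals3bp, a secreted galectin-binding protein, lay at 24.9, 27.3 and 32.2 against 16.3, 23.8 and 27.9, a difference of -0.24 (SE 0.10). All 3 overlapped, at an adjusted p of 0.999.

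Irf1 lay at 5.87, 7.93 and 8.71 CPM at time code 05, at 5.31, 6.66 and 8.44 at 10, and at 3.64, 5.39 and 6.87 at 15. Its log2 fold change for 15 minus 05 was -0.48 (SE 0.10, edgeR adjusted p = 0.104, DESeq2 adjusted p = 0.00381). In the libraries that are not hindbrain-rich the values were 6.96 to 8.71 at 05 (6 libraries) and 5.19 to 6.87 at 15 (5 libraries). In hindbrain-rich libraries they were 5.87 and 5.95 (2 libraries) against 3.64 to 5.03 (3 libraries). The share of all genes that separate in such small groups was not counted, so no weight is put on the lack of overlap. Time code 10 had medians of 6.84 in the other and 6.47 in the hindbrain-rich libraries, the latter above 05.

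Rsad2 encodes viperin, which makes a nucleotide that ends viral RNA chains. It lay at 2.41, 2.76 and 3.93 CPM at time code 05, at 1.56, 2.09 and 3.57 at 10, and at 1.41, 1.82 and 2.26 at 15. Within time code 10 its median was 2.84 in March and 1.89 in April, against 1.86 in May and 1.80 in June. All 8 libraries of 05 were above all 8 of 15, with a log2 fold change of -0.73 (SE 0.16, edgeR adjusted p = 0.190, DESeq2 adjusted p = 0.0145). It was 1 of 41 members without overlap between these codes, against 0.0245% of all genes tested.

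Oasl2, the most abundant member of the oligoadenylate synthetase family here, lay at 3.81, 6.20 and 7.67 CPM at 05, at 5.68, 6.04 and 9.70 at 10, and at 3.54, 4.59 and 5.60 at 15. The groups 10 and 15 did not overlap, which held for 1 of 41 members and 0.0391% of all genes tested, and for 15 minus 10 the log2 fold change was -0.59 (SE 0.14, edgeR adjusted p = 0.394, DESeq2 adjusted p = 0.0357). For 15 minus 05 it was -0.47 (SE 0.14, adjusted p = 0.750). Oasl2 was high in 2 hindbrain-rich libraries of time code 10, at 9.70 CPM in E3-10 1 and 9.09 in E4-10 2.

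Gbp2, a GTPase that attacks vacuoles of intracellular pathogens, lay at 4.13, 5.56 and 6.67 CPM at 05, at 4.53, 5.76 and 8.75 at 10, and at 3.51, 4.52 and 5.15 at 15. For 15 minus 10 it was at -0.38 (SE 0.11, adjusted p = 0.497), with overlap. For 15 minus 05 the 5 members above 0 were Oasl1 (0.22), Trim30a (0.07), Ddx58 (0.05), Sp100 (0.03) and Isg15 (0.01), and Stat2 was at -0.05. Eif2ak2 ran from 5.92 to 11.9 CPM over all libraries, with medians of 9.51 at 05, 8.61 at 10 and 8.20 at 15. Medians were 14.1, 13.8 and 12.6 for Ifit2, 16.8, 16.3 and 15.6 for Ifi27, 12.6, 11.5 and 9.98 for Trim25, and 27.3, 23.8 and 24.3 for Lgals3bp. All 5 overlapped between the codes.

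Without the hindbrain-rich libraries the members' median was -0.17 for 15 minus 05 and -0.16 for 15 minus 10. Homeostatic microglia genes had medians of 4.88, 4.79 and 4.80 log2 CPM at 05, 10 and 15, and endothelial genes 5.35, 5.41 and 5.36. The blood list had a median of 2.72 at 05 against 0.47 and 0.36, and without the 3 libraries with Hbb-bs above 100 CPM the members' median for 15 minus 05 was -0.26. All 5 blood genes were below 0 for 15 minus 05 (1 called), as were 6 of 7 lymphocyte and neutrophil genes (median -0.91, 0 called, 2 at an unadjusted p under 0.05) and 4 of 6 border macrophage genes (median -0.18). For 15 minus 10, 8 of 8 endothelial genes (median -0.10, 2 at an unadjusted p under 0.05), 5 of 6 border macrophage genes (median -0.18, 1 at an unadjusted p under 0.05) and 5 of 7 lymphocyte and neutrophil genes (median -0.59, 1 at an unadjusted p under 0.05) were below 0, with 0 called by edgeR. The part of such cells in the members' lower values was not tested.

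The other interferon lists are given by their counts, with no test between lists. Of 44 further interferon-induced genes 41 were below 0 for 15 minus 05 (median -0.21), with 0 called and 12 at an unadjusted p under 0.05, led by the GTPases Gbp4 (-0.60, SE 0.12, adjusted p = 0.101) and Irgm2 (-0.54, SE 0.11, adjusted p = 0.104) and the peptide transporter Tap1 (-0.56, SE 0.14, adjusted p = 0.363). Of 15 receptor and signalling genes 8 were below 0 (median -0.01), with 0 called and 0 at an unadjusted p under 0.05. Of 18 sensing genes 10 were below 0 (median -0.03), with 0 called and 2 at an unadjusted p under 0.05, the adaptor Mavs (-0.17, SE 0.07) and the DNA sensor Cgas (0.47, SE 0.21). For 15 minus 10, 39 of the 44 induced genes were below 0 (median -0.23, 0 called, 14 at an unadjusted p under 0.05), led by Irgm2 (-0.56, SE 0.11) and Gbp4 (-0.53, SE 0.12), whereas 6 of 15 receptor and signalling genes (median 0.02, 0 called, 2 at an unadjusted p under 0.05) and 9 of 18 sensing genes (median 0.00, 0 called, 3 at an unadjusted p under 0.05) were below 0. DESeq2 calls were not counted for these other lists.

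**Figure D4:**
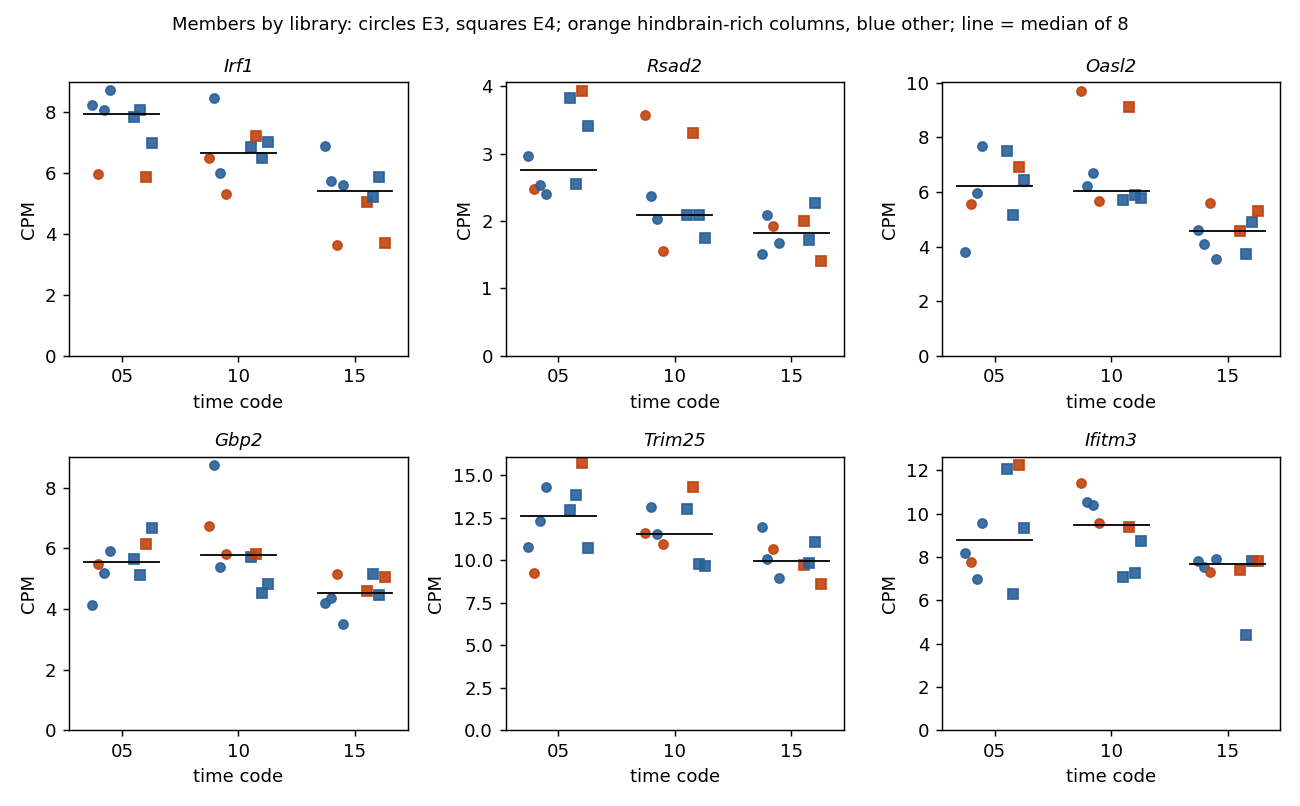
CPM of Irf1, Rsad2, Oasl2, Gbp2, Trim25 and Ifitm3 per library, with circles for E3, squares for E4, orange for hindbrain-rich and blue for other libraries; lines are medians of 8. The medians at time code 15 lie below those at 05 and 10 in all 6 panels, and only Rsad2 (05 against 15) and Oasl2 (10 against 15) show no overlap.

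**Figure D5:**
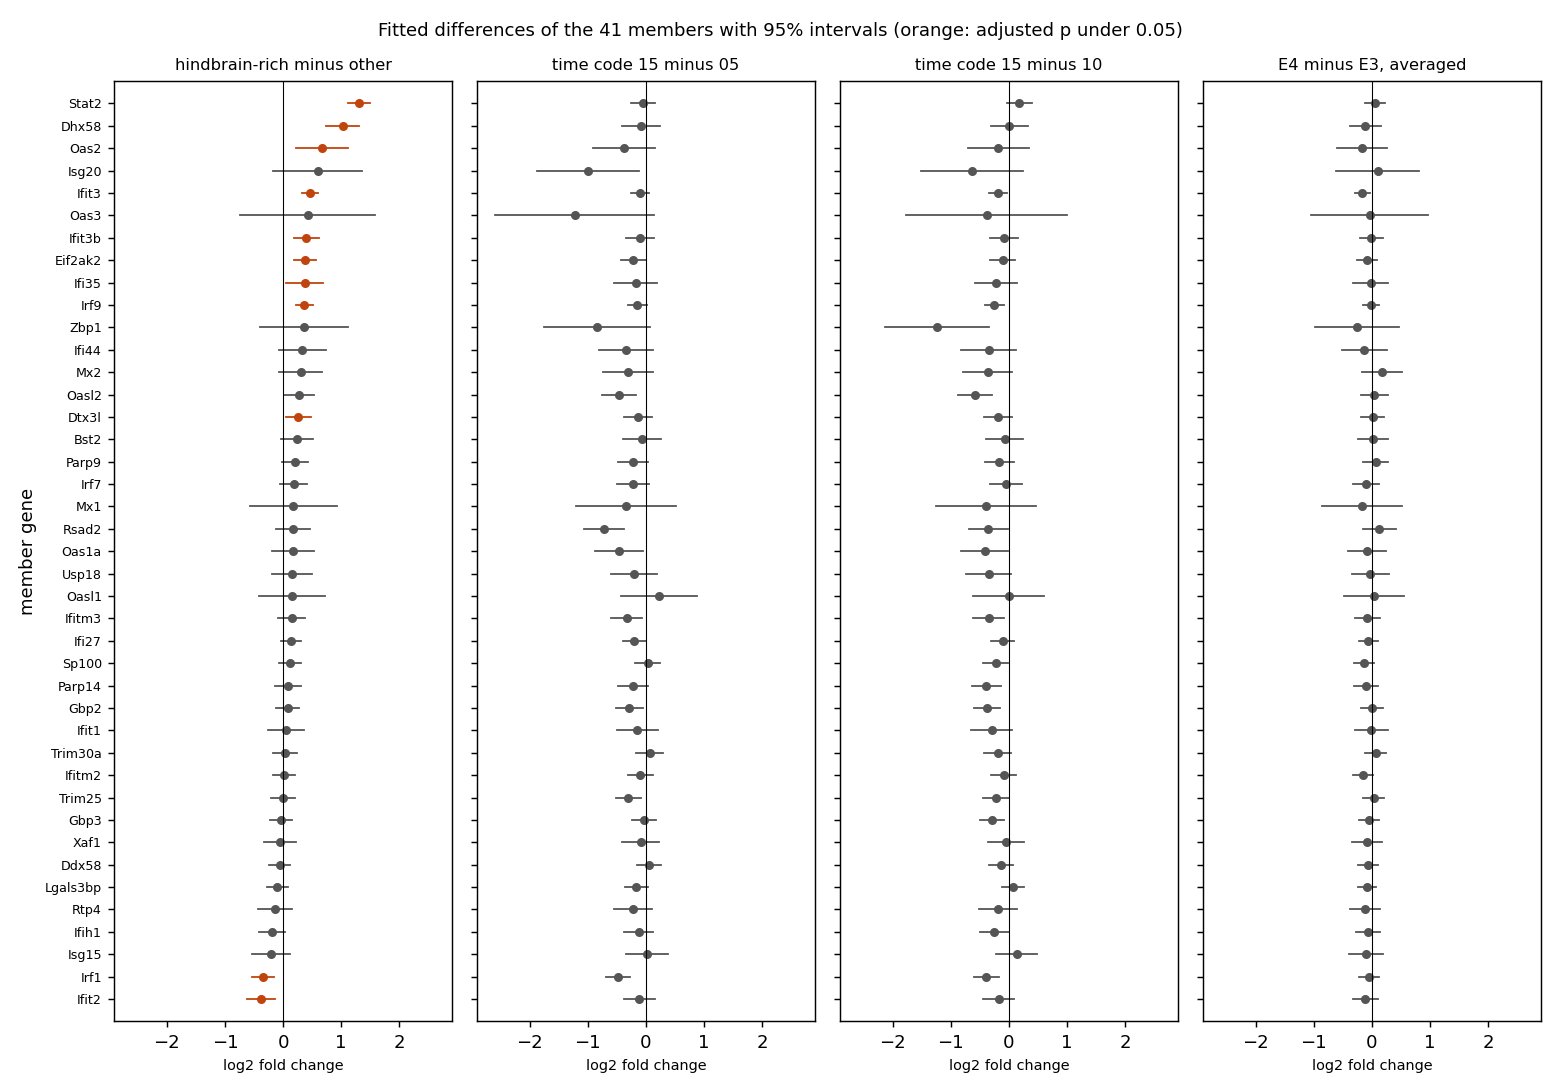
Log2 fold changes (points) with 95% intervals (bars) of the 41 members in 4 comparisons, with adjusted p under 0.05 in orange. The 11 called members all belong to the hindbrain-rich comparison, and most points of both time code 15 panels lie left of 0.

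Within a time code, the libraries of 2 titled months could be compared, 4 against 4. Members were on the whole higher in February than in January and lower in April than in March, with no member called. For February minus January 36 of 41 were above 0 (median 0.13, against -0.01 over all genes), 0 members and 0% of all genes passed with edgeR, 4 members had an unadjusted p under 0.05, and DESeq2 called 0. Smallest in p were Parp14 (0.40, SE 0.13), an ADP-ribosyltransferase, Ifi35 (0.50, SE 0.20) and Mx2 (0.62, SE 0.27). Parp14 lay at 4.81, 5.46, 5.50 and 4.96 CPM in January and at 5.48, 8.18, 7.33 and 6.46 in February. These overlap, with 5.50 in E4-05 1 above 5.48 in E3-05 3.

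For April minus March 35 of 41 members were below 0 (median -0.24, against -0.01 over all genes), 0 members passed where 0.00489% of all genes did, 9 had an unadjusted p under 0.05, and DESeq2 called 0. Without the hindbrain-rich libraries the median was -0.09. Zbp1, which triggers necroptosis, lay at 0.545, 0.989, 0.662 and 1.08 CPM in March and at 0.173, 0.283, 0.124 and 0.287 in April. Its log2 fold change was -1.86 (SE 0.47, adjusted p = 0.269), on only 6 to 16 counts per April library. Zbp1, Parp9, Parp14 and Trim25 did not overlap between these months, and the share of all genes that separate so was not counted. Bst2 was at -0.55 (SE 0.19) and Gbp2 at -0.37 (SE 0.13). For June minus May the median was 0.04 with 24 above 0, 0 members and 0% of all genes passed, 0 had an unadjusted p under 0.05, and DESeq2 called 0. The smallest p were those of Oas2 (-0.70, SE 0.35), Ifi35 (0.40, SE 0.21) and Irf1 (-0.22, SE 0.13). Some marker lists also lay on 1 side of 0 in each of the month comparisons, with 0 of their genes called by edgeR. For February minus January 7 of 7 meningeal and vascular fibroblast genes were above 0 (median 0.55, 4 at an unadjusted p under 0.05) and 5 of 5 blood genes below 0 (median -2.32, 4 at an unadjusted p under 0.05). For April minus March 12 of 12 homeostatic microglia genes (median -0.17) and 8 of 8 endothelial genes (median -0.14) were below 0, with 2 and 0 at an unadjusted p under 0.05. There 7 of 7 choroid plexus genes were above 0 (median 0.62). For June minus May, where the members' median was 0.04, 12 of 12 homeostatic microglia (median 0.14) and 8 of 8 endothelial genes (median 0.12) were above 0. In that comparison 7 of 7 choroid plexus (median -0.22) and 5 of 5 blood genes (median -0.21) were below 0. The part of these lists in the members' differences was not tested. Of the highest values over all 24 libraries, February held those of 17 members and March those of 18, while May held none. These counts follow region and single libraries as well as months. The 8 hindbrain-rich libraries held the highest values of 26 members and the other 16 those of 15. Hindbrain-rich E4-05 3 (February) held 10, and hindbrain-rich E3-10 1 and E4-10 2 (March) held 8 and 4. The same counts were not made over all genes.

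The third comparison, between E codes, addresses the allele in the series title, as far as E4 and E3 stand for it. No member was called in any of its forms, and the signs differed between time codes. At time code 05, 26 of 41 members were above 0 in E4 minus E3 (median 0.05), against 51.1% and 0.00 over all genes. There 0 members and 0% of all genes passed with edgeR, 0 members had an unadjusted p under 0.05, and DESeq2 called 0. Rsad2 lay at 2.96, 2.48, 2.53 and 2.41 CPM in E3-05 1 to 4 and at 3.83, 2.56, 3.93 and 3.41 in E4-05 1 to 4, with overlap. The smallest p were those of Rsad2 (0.40, SE 0.23), Ifitm3 (0.29, SE 0.18) and Trim30a (0.23, SE 0.16), and the median was -0.08 without the 3 libraries high in Hbb-bs, -0.00 without E3-05 1 or E4-05 3, and 0.13 without E3-05 4.

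At time code 10, 29 of 41 members were below 0 (median -0.09), against 50.5% and -0.002 over all genes. Of the members 0 passed where 0.00979% of all genes did, 5 had an unadjusted p under 0.05 and DESeq2 called 0. Ifitm2 lay at 8.51, 10.6, 8.39 and 9.08 CPM in E3-10 1 to 4 and at 8.31, 7.26, 6.39 and 5.62 in E4-10 1 to 4. These groups did not overlap, nor did those of Ifitm3, so 2 of 41 members showed no overlap, against 1.86% of all genes tested. The Ifitm2 log2 fold change was -0.41 (SE 0.15, adjusted p = 0.879). Ifit3 (-0.26, SE 0.11) lay at 11.1, 9.26, 9.66 and 13.0 against 7.67, 11.1, 8.06 and 6.58. Its values of 11.1 in E3-10 1, 13.0 in E3-10 4 and 11.1 in E4-10 2 are from hindbrain-rich libraries, where Ifit3 was higher. The raw values therefore mix region with E code, and the -0.26 carries the hindbrain term. Isg15, the ubiquitin-like modifier, was at 1.91, 1.42, 1.60 and 1.01 against 1.24, 0.857, 1.20 and 0.957 (-0.54, SE 0.24). Both of these overlapped. The median was -0.24 without the hindbrain-rich libraries and -0.21 without E4-10 2, a library that is hindbrain-rich and also high in Gh. In the same comparison 7 of 7 fibroblast genes (median -0.82) and 7 of 7 choroid plexus genes (median -1.10) were below 0, with 0 called by edgeR and 6 and 1 at an unadjusted p under 0.05. Their part was not tested.

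At time code 15, 27 of 41 members were below 0 (median -0.05), against 49.4% and 0.00 over all genes. There 0 members and 0% of all genes passed, 0 members had an unadjusted p under 0.05 and DESeq2 called 0. Dhx58 lay at 1.51, 1.25, 1.76 and 1.21 CPM in E3-15 1 to 4 and at 1.81, 0.803, 0.762 and 2.19 in E4-15 1 to 4, so the E4 libraries held both the highest and the lowest values, and the hindbrain-rich E4-15 1 and E4-15 4 the highest. It had the smallest p (-0.43, SE 0.23, and -0.04 without the hindbrain term), followed by Ifi35 (-0.40, SE 0.25) and Ifit3 (-0.17, SE 0.11). Averaged over time codes, 30 of 41 were below 0 (median -0.06, against 50.2% and 0.00 over all genes), and 0 members and 0% of all genes passed with edgeR or, for members, with DESeq2. Ifit3 alone had an unadjusted p under 0.05, at -0.17 (SE 0.06), with 6.84, 9.05 and 13.0 CPM over 12 E3 libraries and 6.58, 8.07 and 11.1 over 12 E4 libraries. The 95% interval of that difference ran from -0.29 to -0.04. Stat2, by contrast, lay at 20.1, 24.3 and 66.1 CPM in E3 and at 20.2, 22.7 and 71.3 in E4.

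A test for any difference of E4 minus E3 between time codes called 0 members where it called 0.00489% of all genes. Gbp2 had an unadjusted p under 0.05, and DESeq2 called 0 members. Split by region, E4 minus E3 in hindbrain-rich libraries called 0 members and 0% of all genes (median 0.01, 1 unadjusted p under 0.05, DESeq2 0). Ifit3 was at -0.25 (SE 0.11), Isg20, an RNA exonuclease, at 1.12 (SE 0.54) and Stat2 at 0.26 (SE 0.14). Without E4-10 2, where Isg20 was at 3.58 CPM, its value was 0.16. In the other libraries 32 of 41 members were below 0 (median -0.08, against 52.0% and 0.00 over all genes), with 0 members and 0% of all genes called, 1 unadjusted p under 0.05, and DESeq2 0. Ifitm2 was at -0.24 (SE 0.11), Sp100 at -0.19 (SE 0.10) and Irf7 at -0.22 (SE 0.12). The difference between these 2 effects was itself tested and called 0 members and 0% of all genes, with 2 unadjusted p under 0.05 (Isg20 at 1.57, SE 0.67, and Usp18, which removes Isg15 from proteins, at 0.65, SE 0.30), and DESeq2 called 0. Without E4-10 2 the Isg20 value was 0.59. Ifit3b came next by p (-0.35, SE 0.19).

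The members varied together within groups. After group and hindbrain terms were removed, the median Pearson correlation over all 820 pairs of members across the 24 libraries was 0.18, with 75.1% of pairs above 0, against 0.00 and 49.8% over all pairs of genes tested. These correlations share libraries and depth and are given as a description. The members most tied to the rest were Gbp3 (median 0.37 with the other 40), Parp9 (0.34), Trim25 (0.32) and Parp14 (0.32). The closest pair was Dtx3l and Ifih1 (0.79). The lowest median was that of Stat2 (-0.27). Spread between libraries was also unequal: the coefficient of variation over 24 libraries ran from 13.9% for Ddx58 to 87.3% for the scarce Oas3, and was 53.1% for Stat2.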

How the data were processed

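Bulk RNA was measured in 24 mouse brain libraries (6 groups of 4). The authors deposited 1 table of raw counts per gene. Per the submitters' processing notes, HISAT2 2.1.0, featureCounts 2.0.6 and the mm39 build were used; the annotation and strand setting are not given in the sources used here. In the deposited counts, even values made up 62.6% to 70.8% of those from 1 to 19 in each library, an excess over odd values whose cause was not tested, so the number of independent fragments may be below the totals. The table holds 0 columns of samples outside the series. Library totals of 37.4 to 99.5 M (mega counts) limit precision most for scarce members such as Oas3.

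Counts were analysed in R 4.3.3 with edgeR 4.0.16 (filterByExpr over the 6 groups, TMM scaling, quasi-likelihood F test, Benjamini-Hochberg adjustment over 20437 genes, threshold 0.05). SE is the log2 fold change divided by the root of F. Log2 CPM used a prior count of 2. A group model carried a hindbrain term, a month model replaced the time codes by 6 titled months, and another model split E code by kind of library. Residual degrees of freedom were 17, 14 and 18. DESeq2 1.42.0, other scaling and filters, a threshold of 0.01, models without the hindbrain term or libraries, a covariate for titled month, a block for replicate number and leaving out each library were alternatives. The code was tested on simulated data. Residuals of libraries that share a replicate number had a median correlation of -0.01 over 60 pairs, 15 of them above 0.1. Libraries with different numbers had a median of 0.01 over 180 pairs, 47 of them above 0.1. These pairs span different time codes, so this check cannot tell whether the numbers pair E3 and E4 libraries within a time code. Exon lengths, overlaps and shared 50-base words came from GENCODE vM21 (GRCm38) and promoters from RefSeq (GRCm38.p6).

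Members and lists were chosen with earlier results of these data known. Values are given for called members (up to 8 per comparison, by p), otherwise for the 3 members with the smallest p, and for the member with the highest mean count in each of 8 roles. Up to 4 genes of each other interferon list are named, by p. Oas2, Dtx3l, Ifi35 and other members beyond this rule were chosen after their values were seen.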

Additional observations from a re-analysis of the deposited data

Results flagged for a closer look

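In 6 of 102 groups of 4 libraries examined (17 measures: the members' mean level and single members), 1 library lay apart from the other 3 by more than Dixon's 95% limit for the gap as a share of the group's range. Chance flags about 1 in 20 groups. All 6 values came from hindbrain-rich libraries. The measures include members named for their difference by region, so these flags in part restate that difference. Stat2 was at 66.1 CPM in E3-05 2 (others 21.5, 22.8 and 26.2), at 66.8 CPM in E4-05 3 (others 20.2, 22.5 and 24.4) and at 43.5 CPM in E4-10 2 (others 20.9, 21.0 and 22.9). Each is the 1 hindbrain-rich library of its group. E4-10 2 also stood apart for Eif2ak2, at 10.5 CPM (others 7.11, 7.32 and 7.33), and for Oasl2, at 9.09 CPM (others 5.72, 5.77 and 5.87). Ifit3b was at 7.34 CPM in E3-15 3 (others 3.61, 4.00 and 4.14).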

How the results depend on the processing

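The count of called members by region was 9 to 12 when 1 library was left out and 8 to 11 under the other alternatives, with 8 at an adjusted p under 0.01 and 11 with the replicate block or DESeq2. In the other 14 comparisons edgeR called 0 members under every alternative run, and leaving out any 1 library gave 0 to 0. DESeq2 called 2 in 15 minus 05 (Irf1 at -0.48 and Rsad2 at -0.73) and 1 in 15 minus 10 (Oasl2 at -0.59); the cause was not tested. The replicate block changed no call, and for the months it could not be fitted. Leaving out 1 library moved the members' median between -0.22 and -0.15 for 15 minus 05 and between -0.27 and -0.16 for 15 minus 10. Without the hindbrain-rich libraries the median was -0.24 for E4 minus E3 at 10 and -0.09 for April minus March. The median of E4 minus E3 at 15 was 0.04 there, against -0.05 with all libraries, and that at 05 was -0.08 without the libraries high in Hbb-bs. Leaving out the libraries high in Hbb-bs or Gh was chosen after seeing the data. Depth limits scarce members such as Oas3, Zbp1 and Mx1 most.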
